A study of Mus musculus with 6 samples.

Results

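The enzymes described here attach a water-soluble group to drugs, hormones, bile acids and bilirubin: the cytosolic and mitochondrial glutathione S-transferases (Gst genes), the cytosolic sulfotransferases (Sult genes) and the UDP-glucuronosyltransferases of the endoplasmic reticulum (Ugt1 and Ugt2 genes). They were read in the liver of male mice of 2 closely related substrains, Balb/c and Balb/cBy. Members were all probe sets whose annotated gene symbols belong to these families, 51 of the 25335 probe sets that carry a symbol. Each gene or shared set had 1 probe set, so no choice between probe sets arose. There were 19 entries for glutathione S-transferases, 21 for sulfotransferases and 11 for UDP-glucuronosyltransferases. Of the 51, 47 stand for 1 gene each and 4 are shared by several members: the pair Gstp1 and Gstp2, the pair Ugt2a1 and Ugt2a2, and the 2 sets of the Ugt1a locus that cover 5 and 8 of its genes. Another 5 probe sets were left out because they are shared with a gene of another name, and they are described at their class below.

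Each group held 3 mice, labelled as biological replicates, with 1 array per mouse. Balb/c is labelled WT and Balb/cBy is labelled KD, with no gene named for that term; from general knowledge, BALB/cBy mice lack part of Acads, the gene of an enzyme that oxidises short-chain fatty acids. All 6 mice were 20 weeks old and had eaten a diet with 58% of its energy as fat for 12 weeks from the age of 8 weeks, so both groups share the diet and no mice on standard chow enter the comparison. Values are log2 expression from whole-transcript arrays. The 10 hepatocyte markers checked averaged between 13.29 and 13.42 on every array, and all 10 were above the background level used below, as the labelled tissue would have them. As a stand-in for background, 8.02 was used, a level that 95% of 1105 olfactory receptor genes stayed under or at; 30 of the 51 members averaged above it. Brightness differs between probe sets for reasons other than mRNA amount, so the level of one gene is not set against that of another. In whole liver, fewer cells of a type and less RNA per cell cannot be told apart.

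Conjugation is the second phase of drug metabolism. Glutathione S-transferases join reactive compounds to glutathione, sulfotransferases move sulfate from the donor PAPS, and UDP-glucuronosyltransferases move glucuronic acid from UDP-glucuronate; the products leave through transporters into bile or blood. Many of the genes lie in tandem clusters of close copies, and sensors of foreign compounds or stress such as Nrf2, the Ah receptor, Pxr and Car are known to act on their promoters.

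A few members are shown by sequence, the 250 bases before the RefSeq start in the assembly GRCm38.p6. Sult5a1 and Sult1a1 are shown because they had the smallest p-values above background, the Gstp1 and Gstp2 pair because close gene copies can share signal, Ugt1a1 for the shared Ugt1a locus and Ugt2b37 for its wide spread. Windows lie at chr8:123158281-123158530 on the minus strand for Sult5a1, chr7:126676419-126676668 on the minus strand for Sult1a1, chr19:4037913-4038162 on the minus strand for Gstp1, chr19:4042222-4042471 on the minus strand for Gstp2, chr1:88211709-88211958 on the plus strand for Ugt1a1 and chr5:87254789-87255038 on the minus strand for Ugt2b37. All run 5′ to 3′ on the gene's strand. Capitals mark matches, on either strand, to TGACNNNGC (one form of the antioxidant response element of Nrf2), GCGTG (the core bound by the Ah receptor) or TGAGTCA (the AP-1 site).
Sult5a1: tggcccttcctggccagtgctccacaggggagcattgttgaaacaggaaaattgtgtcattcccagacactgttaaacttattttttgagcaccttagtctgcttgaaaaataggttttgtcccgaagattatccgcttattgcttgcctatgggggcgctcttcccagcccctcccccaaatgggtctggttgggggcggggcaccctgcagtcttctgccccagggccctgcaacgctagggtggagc
Sult1a1: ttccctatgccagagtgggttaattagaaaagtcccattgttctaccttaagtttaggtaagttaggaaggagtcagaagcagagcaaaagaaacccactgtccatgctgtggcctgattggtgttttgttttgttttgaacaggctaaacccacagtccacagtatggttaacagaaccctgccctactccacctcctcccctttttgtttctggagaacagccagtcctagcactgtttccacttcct
Gstp1: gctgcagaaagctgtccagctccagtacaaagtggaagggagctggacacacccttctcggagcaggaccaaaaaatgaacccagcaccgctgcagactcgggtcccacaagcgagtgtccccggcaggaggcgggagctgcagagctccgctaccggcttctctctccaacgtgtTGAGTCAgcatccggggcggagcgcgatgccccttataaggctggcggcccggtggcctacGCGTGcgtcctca
Gstp2: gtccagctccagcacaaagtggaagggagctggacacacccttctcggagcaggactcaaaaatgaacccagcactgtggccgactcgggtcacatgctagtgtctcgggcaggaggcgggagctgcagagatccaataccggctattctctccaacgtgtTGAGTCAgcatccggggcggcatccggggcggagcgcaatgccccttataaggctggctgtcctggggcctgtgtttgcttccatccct
Ugt1a1: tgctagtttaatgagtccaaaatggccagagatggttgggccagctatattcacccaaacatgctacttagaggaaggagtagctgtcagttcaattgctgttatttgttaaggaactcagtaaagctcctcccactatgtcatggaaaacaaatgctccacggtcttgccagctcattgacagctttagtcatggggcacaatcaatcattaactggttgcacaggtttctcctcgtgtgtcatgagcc
Ugt2b37: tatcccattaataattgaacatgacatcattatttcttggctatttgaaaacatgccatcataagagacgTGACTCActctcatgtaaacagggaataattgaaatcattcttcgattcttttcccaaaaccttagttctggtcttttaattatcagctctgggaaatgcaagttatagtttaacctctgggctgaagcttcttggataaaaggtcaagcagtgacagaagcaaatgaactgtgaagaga
The Gstp1 and Gstp2 windows matched at 208 of 235 aligned bases, or 88.5%, and each holds TGAGTCA, 74 and 89 bases before the start. Gstp1 also holds GCGTG, 13 bases before the start, and Ugt2b37 holds TGAGTCA on the reverse strand, 180 bases before it. Sult5a1, Sult1a1 and Ugt1a1 hold none of the 3 motifs in this window. Of the 57 genes behind the 51 entries, 50 had a promoter in the RefSeq table, in 60 windows. TGACNNNGC occurred in 2 of these 60 windows (3.33%, against 10.2% of all 32851 promoter windows), those of Gsta3 and Gstm7. GCGTG occurred in 8 windows (13.3%, against 28.2%) and TGAGTCA in 6 (10%, against 4.46%). A TGAGTCA match on the reverse strand can overlap a TGACNNNGC match. A match describes letters, not binding.

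No conjugating enzyme passed the test between the substrains over all genes, which does not show that their levels were equal. Of the 51 members, 0 passed an adjusted p of 0.05 in limma, where 0.00% of the 25335 probe sets passed. At an unadjusted p under 0.05 there were 3 members, all sulfotransferases and all higher in Balb/cBy: Sult5a1, Sult3a1 and Sult1a1. That is 5.88% of the members against 3.83% of all probe sets tested, with 2.67% higher and 1.16% lower. Which members these were depended on the arrays. Without Balb/c replicate 3 there were 5, all higher, where 1254 of the 25335 probe sets were under 0.05 against 971 with all arrays. Without Balb/c replicate 2 there were 4, of which Sult5a1 was higher and Sult2a8, Ugt2b5 and Ugt2a3 lower, where 750 of all probe sets were under 0.05. Sult5a1 was among them with any 1 array left out. The fitted difference was above 0 in 26 members and below 0 in 25, where 49.1% of all probe sets lay above 0. Above the olfactory receptor level it was above 0 in 17 of 30 members (56.7%), against 56.9% of all probe sets at that brightness. The median log2 difference (Balb/c subtracted from Balb/cBy, as in every difference here) was 0.035 for glutathione S-transferases, -0.017 for sulfotransferases and -0.036 for UDP-glucuronosyltransferases, beside -0.0028 over all probe sets tested. Over all probe sets above the olfactory receptor level it was 0.021. The groups did not overlap in 4 members, Sult5a1, Sult3a1, Gstk1 and Gstm1, each higher in Balb/cBy. That is 7.84% of the members against 7.95% of all probe sets tested, of which 4.48% were higher and 3.47% lower, so the members' share is near the background.

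**Figure D1:**
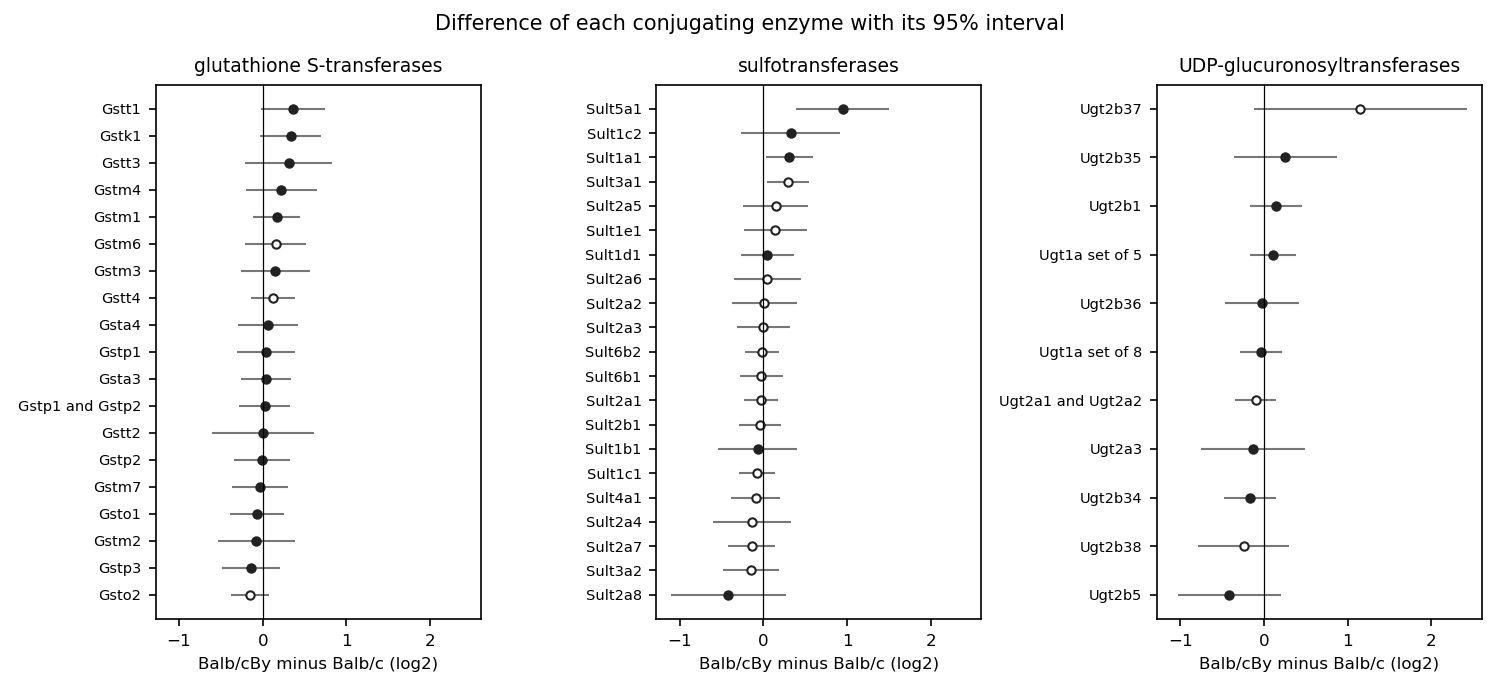
Log2 difference of each of the 51 members (Balb/c subtracted from Balb/cBy) with its 95% interval from limma (lines); filled points average above the olfactory receptor level of 8.02 and open points do not. Most intervals cover 0, those of Sult5a1, Sult1a1 and Sult3a1 do not, and the widest is that of Ugt2b37, from -0.12 to 2.43.

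Among the sulfotransferases, Sult5a1 showed the largest difference of the genes above background. Its log2 level was 8.19, 8.37 and 9.18 in the Balb/c mice, against 9.65, 9.62 and 9.31 in the Balb/cBy mice. All Balb/cBy arrays lay above all Balb/c arrays, the nearest pair being Balb/c replicate 3 and Balb/cBy replicate 3, which were 0.13 apart. The difference was 0.95 ± 0.24 (SE, 95% interval 0.39 to 1.5), or 1.93-fold. Its unadjusted p in limma was 0.00451 and its adjusted p over all probe sets 0.928. Without Balb/c replicate 3 the difference was 1.25 (adjusted p = 0.0996 in limma), and over the other settings run the adjusted p lay between 0.0687 and 1.

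Sult1a1, the phenol sulfotransferase that handles simple phenols and many drugs, read 11.82, 11.46 and 11.47 in Balb/c and 11.81, 11.89 and 11.97 in Balb/cBy. Balb/c replicate 1 lay within the Balb/cBy values, so the groups overlapped. The difference was 0.31 ± 0.12 (SE, 95% interval 0.03 to 0.59), 1.24-fold, with an unadjusted p of 0.0355 in limma and an adjusted p of 0.999. The unadjusted p was above 0.05 without Balb/c replicate 2 (0.114) or 3 (0.104), and without Balb/cBy replicate 2 (0.0724) or 3 (0.108). Sult3a1, an amine sulfotransferase known for higher expression in female than male liver, read 4.48, 4.51 and 4.56 against 4.74, 5.01 and 4.68. The groups did not overlap, but every value was far under the olfactory receptor level. Its difference was 0.29 ± 0.11 (SE).

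The Sult2a genes, which sulfate bile acids and hydroxysteroids, form a run of 8 neighbours in RefSeq's gene order, and 7 of them averaged under the olfactory receptor level on these male livers. Differences within the run went from -0.42 for Sult2a8 to 0.14 for Sult2a5. Sult2a8, the bright member, read 11.40, 10.90 and 12.26 in Balb/c and 10.93, 11.18 and 11.19 in Balb/cBy. Its Balb/c mice thus spanned the whole Balb/cBy range, and Balb/c replicate 3 stood highest. The difference was -0.42 ± 0.30 (SE, 95% interval -1.10 to 0.27). It was -0.048 without Balb/c replicate 3 and -0.73 without Balb/c replicate 2, and neither passed over all probe sets. Its dim neighbour Sult2a7 read 7.56, 7.31 and 7.24 against 7.22, 7.09 and 7.38, with overlap (-0.14 ± 0.12, SE).

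Sult1d1, a sulfotransferase of catecholamines and related compounds, read 11.49, 11.00 and 11.28 against 11.31, 11.20 and 11.40. Its difference was 0.05 ± 0.14 (SE, 95% interval -0.26 to 0.36). Sult1c2 read 8.16, 7.56 and 8.39 against 7.97, 8.81 and 8.30, with a wide and overlapping spread in both groups. Its difference of 0.33 ± 0.26 (SE) lay between 0.089, without Balb/c replicate 2, and 0.52, without Balb/cBy replicate 1. Sult1b1, which acts on thyroid hormones among others, differed by -0.07 ± 0.20 (SE). The estrogen sulfotransferase Sult1e1, Sult1c1, Sult2b1 and Sult4a1 averaged under the olfactory receptor level, as did Sult6b1, Sult6b2 and Sult3a2, and their differences lay between -0.15 for Sult3a2 and 0.14 for Sult1e1.

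**Figure D2:**
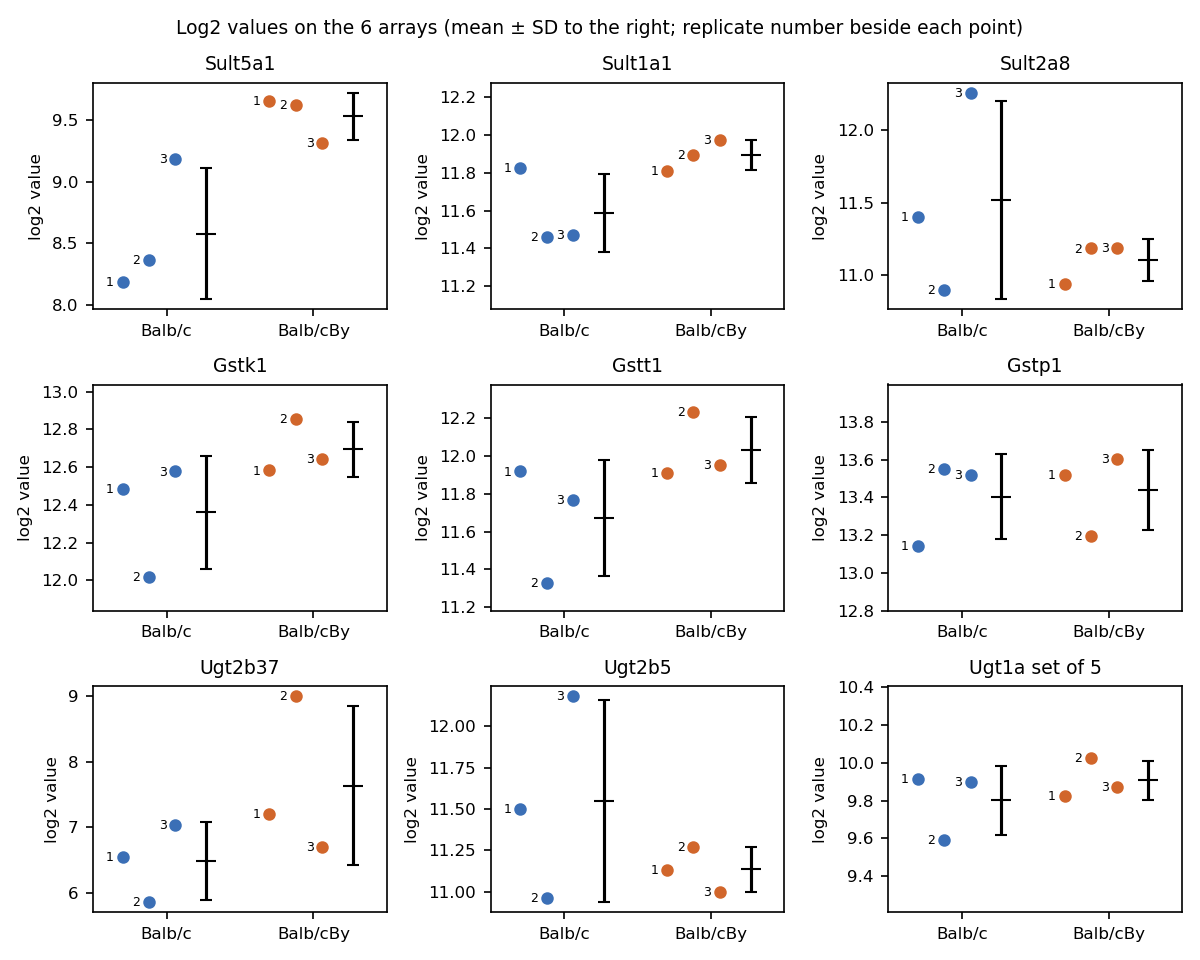
Log2 values of 9 members on the 6 arrays (points, replicate number beside each) with the mean ± SD of each group (n = 3) to the right; each panel has its own vertical range. The groups do not overlap in Sult5a1 and Gstk1, by gaps of 0.13 and 0.0055. Sult2a8 and Ugt2b5 are spread widely in Balb/c, and Ugt2b37 has 1 high Balb/cBy array at 9.0.

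Glutathione S-transferases showed small differences between the substrains, from -0.16 for Gsto2 to 0.36 for Gstt1 and 12 of 19 above 0. Of the 19, 16 averaged above the olfactory receptor level, where 56.9% of all probe sets lay above 0. No glutathione S-transferase was at an unadjusted p under 0.05. The theta class, which acts on small halogenated compounds, had the largest difference, that of Gstt1. Gstt1 read 11.92, 11.33 and 11.77 in Balb/c and 11.91, 12.23 and 11.95 in Balb/cBy. Balb/c replicate 2 was the lowest array and Balb/cBy replicate 2 the highest, and the groups overlapped at Balb/c replicate 1, just above Balb/cBy replicate 1. The difference was 0.36 ± 0.17 (SE, 95% interval -0.02 to 0.74), and 0.19 without Balb/c replicate 2. Its neighbours gave 0.31 ± 0.23 (SE, and 0.12 to 0.54 with 1 array left out) for Gstt3, 0.12 ± 0.11 (SE) for Gstt4 and -0.0012 ± 0.26 (SE) for Gstt2. Gstt3 read 8.78, 8.23 and 7.94 against 8.29, 8.76 and 8.83; Balb/c replicate 1 lay within the Balb/cBy values and the other Balb/c arrays below them.

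Gstk1, the kappa-class enzyme of mitochondria and peroxisomes, read 12.48, 12.02 and 12.58 in Balb/c and 12.58, 12.86 and 12.64 in Balb/cBy. The groups did not overlap, but by a gap of 0.0055. The difference was 0.33 ± 0.16 (SE, 95% interval -0.03 to 0.70), 1.26-fold, and 0.16 without Balb/c replicate 2, the array that read lowest.

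The mu class, the Gstm genes that lie side by side, showed differences between -0.07 for Gstm2 and 0.22 for Gstm4, with 4 of 6 above 0. Gstm1 read 10.09, 9.99 and 10.09 against 10.10, 10.47 and 10.10. All Balb/cBy arrays lay above all Balb/c arrays, by a gap of 0.0030, with Balb/cBy replicate 2 standing apart from the other 5. The difference was 0.17 ± 0.12 (SE), and 0.040 without that array. Gstm4 read 9.17, 8.94 and 8.94 against 8.84, 9.61 and 9.25, again highest on Balb/cBy replicate 2. Its difference of 0.22 ± 0.18 (SE) was 0.032 without that array and 0.42 without Balb/cBy replicate 1. Gstm3, Gstm6 and Gstm7 differed by 0.15 ± 0.18, 0.15 ± 0.16 and -0.03 ± 0.14 (SE).

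The pi class was bright, and no member had an unadjusted p under 0.05. Gstp1, known as the main pi enzyme of male mouse liver, read 13.14, 13.55 and 13.52 in Balb/c and 13.52, 13.20 and 13.60 in Balb/cBy, a difference of 0.04 ± 0.15 (SE, 95% interval -0.31 to 0.38). Gstp2 read 12.45, 12.85 and 12.83 against 12.70, 12.50 and 12.89, with a difference of -0.01 ± 0.15 (SE). The set that both share read 12.71, 12.98 and 13.03 against 12.95, 12.73 and 13.11 (0.02 ± 0.13, SE). In all 3, Balb/c replicate 1 and Balb/cBy replicate 2 were the lowest arrays. Since Gstp1 and Gstp2 are close copies, the 3 sets are uncertain as separate readings; cross-reading between their probes was not tested. Gstp3, the third gene of the run, differed by -0.14 ± 0.15 (SE).

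In the alpha class, Gsta3, known for clearing the epoxide of aflatoxin, averaged 12.18 ± 0.24 in Balb/c against 12.21 ± 0.07 in Balb/cBy (each SD, n = 3), with a difference of 0.03 ± 0.13 (SE). Gsta4, which clears the lipid peroxidation product 4-hydroxynonenal, differed by 0.06 ± 0.16 (SE). Gsta1 and Gsta2 are carried by 3 probe sets that they share with the predicted genes Gm3776 and Gm10639. Those sets differed by 0.19 ± 0.15, -0.08 ± 0.14 and -0.02 ± 0.10 (SE). Among the remaining sets shared outside the families, that of Gstz1, the maleylacetoacetate isomerase of tyrosine breakdown, and Pomt2 differed by 0.05 ± 0.14 (SE), and that of Gstm5 and 4933431E20Rik by 0.20 ± 0.15 (SE). In the omega class, Gsto2 read 7.88, 7.95 and 7.83 against 7.87, 7.63 and 7.69, under the olfactory receptor level, and Gsto1 differed by -0.06 ± 0.14 (SE).

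Among UDP-glucuronosyltransferases the median SD between mice of a group was 0.30, and the median size of the difference between the substrains was 0.15 on the log2 scale. Their differences ran from -0.41 for Ugt2b5 to 1.15 for Ugt2b37, and 0 of 11 had an unadjusted p under 0.05 or groups that did not overlap. Ugt1a genes share their last exons, and Ugt1a1 is the enzyme that conjugates bilirubin. The Ugt1a set of 5 genes read 9.92, 9.59 and 9.90 in Balb/c and 9.83, 10.02 and 9.87 in Balb/cBy. The groups overlapped in part, with Balb/c replicate 2 lowest and Balb/cBy replicate 2 highest. It differed by 0.11 ± 0.12 (SE, 95% interval -0.17 to 0.38), and the Ugt1a set of 8 genes by -0.04 ± 0.11 (SE, 95% interval -0.29 to 0.21). Neither set can tell one Ugt1a gene from another.

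The Ugt2b enzymes conjugate steroids, bile acids and many drugs, and their genes stand with Ugt2a1, Ugt2a2, Ugt2a3 and the Sult1b1, Sult1d1 and Sult1e1 genes in a run of 13 neighbours. Ugt2b1 read 13.14, 12.92 and 13.43 against 13.38, 13.34 and 13.21 (0.15 ± 0.14, SE). Ugt2b36 read 12.80, 12.43 and 13.21 against 12.90, 12.88 and 12.59, a difference of -0.02 ± 0.19 (SE). Ugt2b34 read 12.06, 11.82 and 12.29 against 11.94, 11.98 and 11.74, a difference of -0.17 ± 0.14 (SE). In each of the 3 the Balb/c mice alone spanned nearly the whole range, with replicate 2 lowest and replicate 3 highest among them. Ugt2b5 repeated that order at a larger size, with 11.50, 10.96 and 12.18 against 11.13, 11.27 and 11.00. Its difference was -0.41 ± 0.27 (SE, 95% interval -1.03 to 0.20). Without Balb/c replicate 3 it was -0.097, and without Balb/c replicate 2 it was -0.71, with an unadjusted p of 0.0103 and an adjusted p of 1 in limma.

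Ugt2b37 had the widest spread of any member. It read 6.55, 5.86 and 7.04 in Balb/c and 7.21, 9.0 and 6.70 in Balb/cBy. Only Balb/cBy replicate 2 was above the olfactory receptor level, and the groups overlapped. The difference was 1.15 ± 0.55 (SE, 95% interval -0.12 to 2.43), and 0.47 without Balb/cBy replicate 2. Ugt2b35 and Ugt2a3 differed by 0.25 ± 0.27 and -0.13 ± 0.27 (SE). Ugt2b38 read 5.45, 5.43 and 6.14 against 5.47, 5.77 and 5.06, under the olfactory receptor level (-0.24 ± 0.23, SE). The set of Ugt2a1 and Ugt2a2, known from olfactory tissue, was also under it, at 6.96, 6.87 and 6.95 against 6.94, 6.64 and 6.90 (-0.10 ± 0.11, SE). Both overlapped between the groups.

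The conjugating enzymes spread more between mice of a group than the median probe set, as did some of the other lists but not all. The median within-group SD was 0.22 over the 51 members and 0.30 over the UDP-glucuronosyltransferases, beside 0.14 over all probe sets tested; for probe sets above the olfactory receptor level it was 0.23 in the 30 members and 0.16 in all. It was 0.25 for the transporters of conjugates, 0.23 for other targets of the foreign-compound sensors, 0.41 for male-biased and 0.32 for female-biased liver genes. Lists of other kinds were wide too, with 0.35 for Kupffer cell markers, 0.28 for pancreas markers and 0.21 for glucuronate supply and removal. Other lists were lower, at 0.16 for the other glutathione genes and 0.15 for pericentral markers, both still above the 0.14 of all probe sets. The hepatocyte markers were at 0.07. The SD was larger in Balb/c than in Balb/cBy in 31 of the 51 members (60.8%, against 47.2% of all probe sets tested). By family it was 13 of 19 glutathione S-transferases, 8 of 11 UDP-glucuronosyltransferases and 10 of 21 sulfotransferases, the last a share of 47.6%, near that of all probe sets. Above the olfactory receptor level it was larger in Balb/c in 24 of these 30 members (80.0%), against 52.6% of all probe sets at that brightness. Examples are Sult2a8 (SD 0.69 against 0.14), Ugt2a3 (0.63 against 0.08) and Ugt2b5 (0.61 against 0.14), while Ugt2b37 went the other way (0.59 against 1.21).

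**Figure D3:**
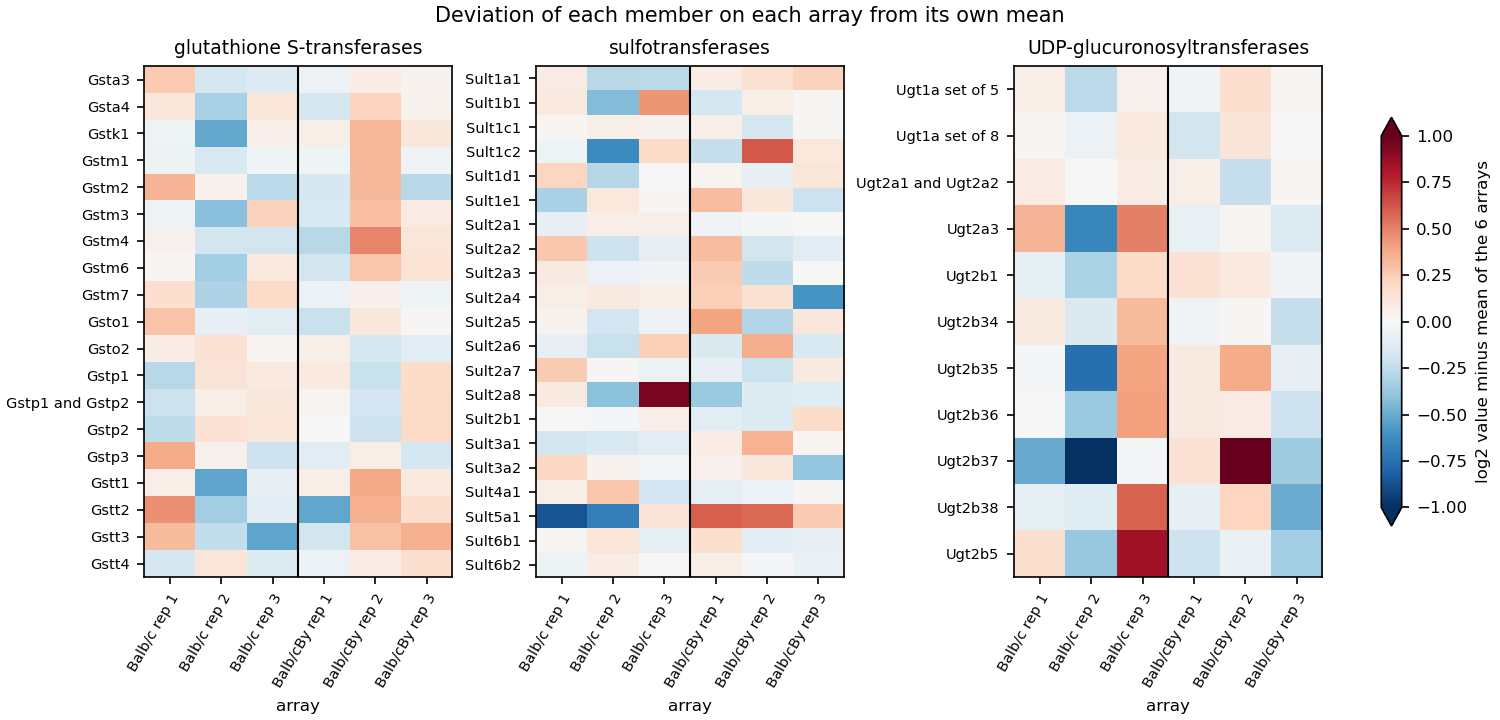
Log2 value of each member on each array minus its mean over the 6 arrays (colour, cut at -1 and 1), by family; the black line parts Balb/c from Balb/cBy. Balb/c replicate 2 is blue in most Ugt2 rows and Balb/c replicate 3 red.

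Some mice stood at the extremes more often than others. Balb/c replicate 2 held the lowest value in 18 of the 30 members above the olfactory receptor level, where it did so in 24.6% of all probe sets at that brightness, and it held the highest value in 0 of the 30, against 17.9%. Its median deviation from the mean of the 6 arrays was -0.30 over the 30 members and -0.027 over all such probe sets. Balb/c replicate 3 held the highest value in 9 of the 30, against 16.9% of all such probe sets, among them Sult2a8 and Ugt2b5. In 7 of 11 UDP-glucuronosyltransferases the lowest value fell on Balb/c replicate 2, and in 7 of 11 the highest fell on Balb/c replicate 3. Balb/cBy replicate 2 was highest in 9 of the 30 too, a share near the 29.7% of all probe sets at that brightness. The members share the same 6 livers and arrays, so these counts describe mice and are not separate observations. The part of cell make-up in the spread was not tested.

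**Figure D4:**
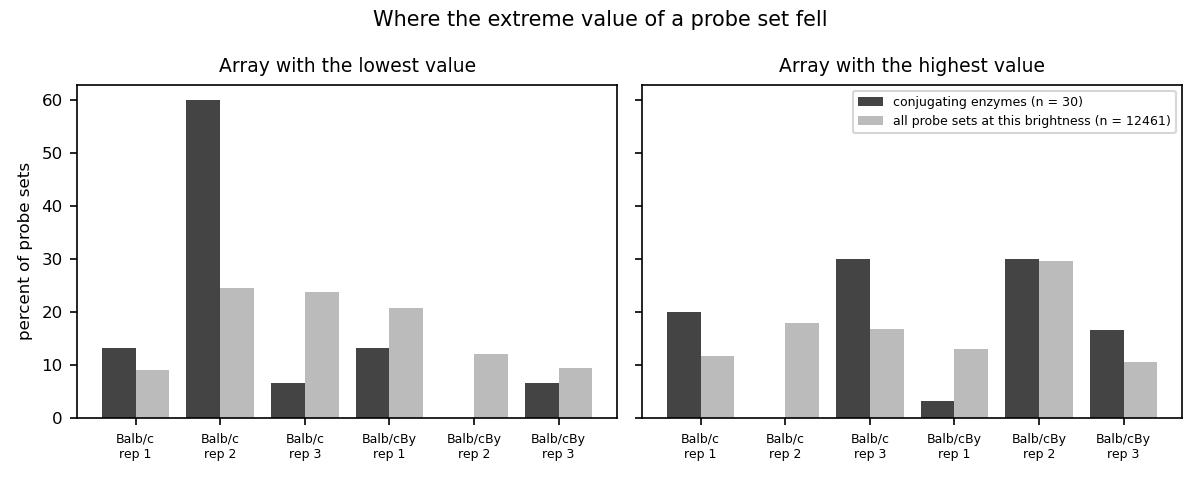
Percent of probe sets whose lowest value (left) or highest value (right) fell on each array, for the 30 conjugating enzymes above the olfactory receptor level (dark) and all 12461 probe sets above it (grey). Balb/c replicate 2 holds the lowest value of 18 of the 30 enzymes and 24.6% of all such probe sets.

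The genes around conjugation were read through lists chosen by pathway, and none of their members passed over all probe sets. For the list counts here and below, 49.1% of all probe sets tested were higher and 3.83% had an unadjusted p under 0.05. Above the olfactory receptor level those shares were 56.9% and 5.09%. Of 21 other glutathione genes, 8 were lower and 13 higher (median difference 0.05). At an unadjusted p under 0.05 were 9.52% of them, Glo1 and Dpep1, against 3.83% of all probe sets tested. Glo1, the glutathione-dependent glyoxalase, differed by 0.79 ± 0.19 (SE, adjusted p = 0.729 in limma). Dpep1, a dipeptidase that trims glutathione conjugates, differed by 0.50 ± 0.13 (SE). The subunits of the enzyme that starts glutathione synthesis, Gclc and Gclm, differed by -0.27 ± 0.17 and -0.24 ± 0.12 (SE), and Gss, which completes it, by 0.23 ± 0.11 (SE). Of 15 genes of sulfate handling, 13 were lower and 2 higher, where 49.1% of all probe sets tested were higher. Their median was -0.06, and none was at an unadjusted p under 0.05. Papss2, which makes the sulfate donor PAPS, differed by -0.27 ± 0.22 and the lysosomal sulfatase Arsb by -0.12 ± 0.13 (SE). Of 11 genes of glucuronate supply and removal, 6 were higher and 5 lower (median 0.01). Slc35b1, a nucleotide transporter of the endoplasmic reticulum, differed by 0.40 ± 0.13 (SE, unadjusted p = 0.0179 in limma), and Ugdh, which makes UDP-glucuronate, by 0.02 ± 0.15 (SE).

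Of 14 transporters of conjugates, 10 were lower and 4 higher, with a median of -0.15, where 49.1% of all probe sets tested were higher. Of the 14, 11 averaged above the olfactory receptor level, where 56.9% of all probe sets were higher, with a median of 0.021. The efflux pump Abcg2 differed by -0.38 ± 0.12 (SE), and the uptake carrier Slco1a4 differed by -0.78 ± 0.29 (SE). Slco1a4 averaged under the olfactory receptor level. It was lowest on Balb/cBy replicate 1, at 6.85 against 8.08 and 7.79 in the other Balb/cBy mice. Abcg2 and Slco1a4 were at an unadjusted p under 0.05, 14.3% of the list against 3.83% of all probe sets tested, and neither passed. Abcc2, the canalicular pump for glucuronides and glutathione conjugates, differed by -0.03 ± 0.19 (SE). Of 21 transcription factors, 10 were higher and 11 lower (median -0.0018). Cebpa, a hepatocyte factor, differed by -0.36 ± 0.11 (SE, unadjusted p = 0.0104 in limma), and Nfe2l2, which encodes Nrf2, by -0.0018 ± 0.14 (SE). The Ah receptor gene Ahr differed by 0.11 ± 0.13 (SE), Nr1i2 (Pxr) by 0.05 ± 0.15 (SE) and Nr1i3 (Car) by -0.10 ± 0.18 (SE). Of 20 other targets of these sensors, 11 were higher (median 0.07) and none was at an unadjusted p under 0.05, Srxn1 and Hmox1 coming nearest at 0.38 ± 0.17 and 0.41 ± 0.19 (SE).

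Several Sult2a, Sult3a and Ugt2b genes differ between the sexes in mouse liver, so sex-biased genes were read beside them. Of 14 male-biased genes 9 were higher in Balb/cBy and 5 lower (median 0.13), with Serpina1e at 0.26 ± 0.10 (SE, unadjusted p = 0.032 in limma). The largest difference of that list was that of Mup21, at -1.02 ± 0.46 (SE), with overlapping groups. Of 13 female-biased genes 5 were higher and 8 lower (median -0.04). The smallest p-values were those of Hao2, at -0.19 ± 0.11 and under the olfactory receptor level, and Cyp17a1, at 0.31 ± 0.19 (SE). The mean level of the male-biased list ran from 11.00 to 11.73 in Balb/c and from 11.13 to 11.47 in Balb/cBy. Among markers of zones and other cells, the mean of the pericentral list, 6 of 9 higher and 3 lower, ran from 10.56 to 10.67 in Balb/c and from 10.65 to 10.77 in Balb/cBy, where Rhbg differed by 0.36 ± 0.13 (SE). That of the periportal list ran from 11.51 to 11.76 and from 11.42 to 11.69. Kupffer cell markers, 4 of 8 higher and 4 lower, ran from 9.35 to 10.17 and from 9.60 to 10.06, with Vsig4 at 0.41 ± 0.16 (SE). The endothelial list ran from 9.80 to 9.94 and from 9.71 to 10.01, and the stellate list, 7 of 8 higher, from 9.38 to 9.67 and from 9.48 to 9.85, with Dcn at 0.48 ± 0.14 (SE). Cholangiocyte markers averaged between 7.54 and 7.74 on all arrays. The neutrophil list, with 4 of 6 higher and 2 of 6 above the olfactory receptor level, ran from 7.14 to 7.34 and from 7.39 to 7.50, with Retnlg at 0.40 ± 0.11 and S100a8 at 0.29 ± 0.12 (SE). Lymphocyte markers, 1 of 6 higher and 5 lower (median -0.10), ran from 7.45 to 7.52 and from 7.46 to 7.69, with the higher one, Jchain, at 1.12 ± 0.28 and Nkg7 at -0.24 ± 0.09 (SE). Pancreas markers ran from 7.95 to 8.64 and from 7.87 to 7.99. Intestinal markers, with 5 of 6 lower and 3 of 6 above that level, ran from 8.19 to 8.27 and from 7.96 to 8.09, with Fabp2, a fatty acid binding protein, at -0.73 ± 0.20 (SE). The neutrophil and intestinal ranges did not overlap between the substrains. Taken singly, groups did not overlap in 3 of 6 neutrophil markers, all higher, and in 3 of 6 lymphocyte markers, 1 higher and 2 lower. They did not overlap in 1 of 6 intestinal and 1 of 4 pancreas markers, both lower. The share over all probe sets tested was 7.95%. It was 1 of 9 for pericentral markers and 1 of 8 each for endothelial and stellate markers. The median difference of the intestinal markers was -0.10. The part of any list in the values of the conjugating enzymes was not tested.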

How the data were processed

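Liver RNA of 6 mice was read on 1 Affymetrix array each. The deposited table holds log2 values for 41345 probe sets, made by the authors with RMA, per the submitters' processing notes; its software version and the genome build: not given in the sources used here. Values run from 3.31 to 14.84. RMA compresses values near background, which understates fold changes of dim probe sets. The platform annotation gave symbols for 25335 probe sets (23521 with 1 symbol, 1814 with several), and all of these were fitted with limma 3.58.1 in R 4.3.3: substrain as the single term, empirical Bayes moderation, two-sided tests, Benjamini-Hochberg adjustment over all 25335, threshold 0.05. The script was tested on simulated arrays. An exact permutation test of 3 against 3 arrays cannot go below 0.1. The number of arrays limits the precision.

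The members and lists were chosen with earlier results of these data known. Array values are printed for the 6 smallest p-values and the 4 brightest entries of each family and, chosen after their values were seen, the Ugt1a set of 5. In other lists, genes at an unadjusted p under 0.05 are named, or else the first 2. Gclc, Gclm, Gss, Ugdh, Abcc2, Nfe2l2, Ahr, Nr1i2 and Nr1i3 were added for their roles, and Mup21 for the size of its difference. Promoters came from RefSeq (GRCm38.p6); all 57 genes matched its gene table by symbol. Motifs, the 2 settings marked as added and the olfactory level were chosen after the data were seen.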

Additional observations from a re-analysis of the deposited data

How the results depend on the processing

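Under the settings run, 0 of the 51 members passed an adjusted p of 0.05 in limma in each, array weights and every left-out array included. The count over all probe sets was 0 as reported, 53 with array weights, 0 to 6 with 1 array left out (2 when Balb/c replicate 3 was dropped, 6 when it was Balb/cBy replicate 1) and 14 without the 2 arrays of lowest weight, a setting added after the data were seen; the cause was not tested. Members at an unadjusted p under 0.05 numbered 3 as reported, 2 to 5 with 1 array left out (5 without Balb/c replicate 3) and 9 without the 2 arrays of lowest weight, where 2466 of all probe sets were under 0.05 against 971 as reported. Deviations of same-numbered arrays correlated at -0.33, -0.18 and -0.25, and those of differently numbered arrays at -0.0072 to 0.22. Deviations centred within groups of 3 cannot settle whether the replicate numbers pair the samples. With the replicate block, the count of members at an unadjusted p under 0.05 was 1, Sult5a1. Sult1a1 had an unadjusted limma p of 0.0553 with trend and robust moderation and 0.0746 without moderation. Its unadjusted limma p was 0.0513 with array weights and 0.0524 with repeated quantile normalization. With array weights Sult3a2 was under 0.05 unadjusted, and it was lower in Balb/cBy. Sult5a1 stayed under 0.05 unadjusted in every setting, with a difference of 0.75 to 1.25. The sulfotransferase median was 0.18 where dim probe sets were dropped, which leaves 6 of its 21 genes. Family medians with 1 array left out were 0.019 to 0.16 for glutathione S-transferases, -0.028 to 0.019 for sulfotransferases and -0.13 to 0.094 for UDP-glucuronosyltransferases. Adding the 5 probe sets shared outside the families, also chosen after the data were seen, left the count at 3.

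Several differences changed sign, most of them near 0; the cause was not tested. With 1 array left out they ran from -0.095 to 0.16 for Gstp1, -0.14 to 0.090 for Gstp2, -0.078 to 0.12 for the set of Gstp1 and Gstp2, -0.080 to 0.17 for Sult1d1 and -0.22 to 0.18 for Ugt2b36. Repeated quantile normalization gave -0.025 for the set of Gstp1 and Gstp2 and -0.016 for Sult1d1. Gstp2 was 0.17 with array weights and 0.0067 with median centring. Without the 2 arrays of lowest weight, Gstp2 was 0.046, Sult2a8 0.035 (-0.42 as reported, not near 0) and Ugt2b36 0.12.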
